A study of Mus musculus with 4 samples.

Results

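The inhibitor of DNA binding (ID) genes Id1, Id2, Id3 and Id4 were followed in libraries labelled as sorted gonadotropes, the cells that secrete luteinizing and follicle-stimulating hormone (FSH) from the pituitary. They were chosen by symbol, and each of the 4 was found once among the 54532 genes of the deposited count table and passed the filter on low counts, as did 17349 genes in all. The cells came from male mice of mixed strain aged 10 to 12 weeks and had been FACS-sorted according to the labels, although the design text mentions bulk profiling of the gland. There were 2 libraries from mice with a conditional Gata2 knockout (cKO), gonadotrope-specific according to the series' title, and 2 from controls. The Cre driver, the alleles of the control mice and whether animals were pooled were not stated in the sources used here. Since separate animals are not stated for the libraries, each p-value reflects library-to-library spread, which could be technical.

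ID proteins are short helix-loop-helix proteins without a DNA-binding basic region. They bind E proteins, the widely expressed basic helix-loop-helix (bHLH) partners of lineage factors, and the pairs they form cannot bind DNA. Their genes are classic direct targets of bone morphogenetic protein (BMP) signalling through SMAD1, SMAD5 and SMAD4. Gremlin 1, the product of Grem1, is a secreted BMP antagonist, and the study's title names its loss. The comparison asks whether the ID transcripts differ when Gata2 is deleted.

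The members share the helix-loop-helix region. Its coding sequence is shown because reads of 1 gene could be counted for another where paralogs match, and the stretch below was the most alike in-frame stretch of 120 bases. Each lies in the first coding exon (mm10, GENCODE M21): Id1 at chr2:152736518-152736637 (+), Id2 at chr12:25095783-25095902 (-), Id3 at chr4:136144002-136144121 (+) and Id4 at chr13:48261693-48261812 (+). Capitals mark the 69 bases (57.5%) that are the same in all 4 genes.
Id1: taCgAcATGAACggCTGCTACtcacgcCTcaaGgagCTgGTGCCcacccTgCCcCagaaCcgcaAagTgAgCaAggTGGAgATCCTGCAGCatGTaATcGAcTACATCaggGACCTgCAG
Id2: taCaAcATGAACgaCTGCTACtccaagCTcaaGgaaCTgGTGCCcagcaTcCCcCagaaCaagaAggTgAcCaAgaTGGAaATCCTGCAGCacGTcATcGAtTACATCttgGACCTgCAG
Id3: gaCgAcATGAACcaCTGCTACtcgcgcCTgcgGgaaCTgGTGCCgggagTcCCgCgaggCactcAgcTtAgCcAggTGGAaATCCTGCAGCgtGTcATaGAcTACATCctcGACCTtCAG
Id4: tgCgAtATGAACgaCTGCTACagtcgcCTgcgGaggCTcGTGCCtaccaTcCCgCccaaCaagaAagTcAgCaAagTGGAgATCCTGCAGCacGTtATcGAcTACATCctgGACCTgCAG
Pairs of members matched at 70.8% to 81.7% of these bases, with Id1 and Id2 the most alike. The longest run shared by the transcripts of any pair was 19 bases, between Id2 and Id3. All 16 member values in the count table were whole numbers, whereas 13.4% of the table's values above 0 were not. Id1 (ENSMUSG00000042745.9, chr2:152736251-152737410), Id2 (ENSMUSG00000020644.9, chr12:25093799-25097140) and Id3 (ENSMUSG00000007872.3, chr4:136143497-136145755) overlap no other annotated gene. Id4 (ENSMUSG00000021379.2, chr13:48261228-48266026) shares 82 and 171 of its 3849 exonic bases with the noncoding genes A330033J07Rik and Gm49291 on the opposite strand. Both had 0 counts in every library, and the strand setting of the counting is not given, so any reads from them in the shared bases could not be told from Id4 reads.

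Library totals ran from 10646909 to 21135301 counts, with control replicate 1 the shallowest and control replicate 2 the deepest. Control replicate 1 stood apart: its log2 CPM correlated across genes (Pearson's r) at 0.841 and 0.854 with the cKO libraries and at 0.889 with control replicate 2, which itself reached 0.917 and 0.928 with the cKO libraries. The targeted gene Gata2 had 221 and 214 CPM (counts per 1000000, scaled with TMM factors) in cKO libraries, against 537 and 526 CPM in controls, giving -1.29 on the log2 scale (SE 0.14, adjusted p = 0.0473 by edgeR). The count covers the whole gene, including exons that may lie outside the deletion. Transcripts of other pituitary cells were abundant beside those of gonadotropes. Per kilobase of exon, Pomc, a corticotrope and melanotrope gene, had 4577 and 5421 CPM in cKO, against 5433 and 7445 CPM in controls, while the gonadotrope gene Cga had 3615 and 4387 CPM in cKO, against 6346 and 6433 CPM in controls, and Lhb had 3052 and 3312 CPM in cKO, against 7586 and 6046 CPM in controls. Pomc was thus above both gonadotrope genes in every library but control replicate 1, so these markers do not show gonadotropes alone, and the values that follow are of whole libraries.

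None of the 4 ID genes passed the test over all genes (edgeR quasi-likelihood test, Benjamini-Hochberg adjusted p under 0.05), against a background of 0.0576% of genes called. All 4 fitted log2 fold changes were above 0, as were 9099 of the 17349 genes tested. Their median was 0.75, beside 0.03 over all genes tested. With 1 library left out the sign changed for Id1 and Id4. The members differed in how well their libraries agreed. Id2 was tight within both groups, though not unusually so for its level, and the others varied widely in at least 1. Among genes within 0.5 log2 units of its average level, 42.9% in cKO and 67.3% in controls had gaps at least as wide. These shares were 26.4% and 15.0% for Id3, 83.8% and 15.4% for Id4, and 2.62% and 43.4% for Id1. Most of these gaps were thus common at such levels, with that of Id1 in cKO the rarest. At an unadjusted edgeR p under 0.05 there was 1 member, Id2, against 7.04% of all genes (3.15% on the higher side). DESeq2 and limma-voom each called 1 member, again Id2, against 5.55% and 1.48% of all genes. Groups did not overlap for Id2 and Id3, in both cases with cKO above control, which 19.7% of all genes also showed.

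**Figure D1:**
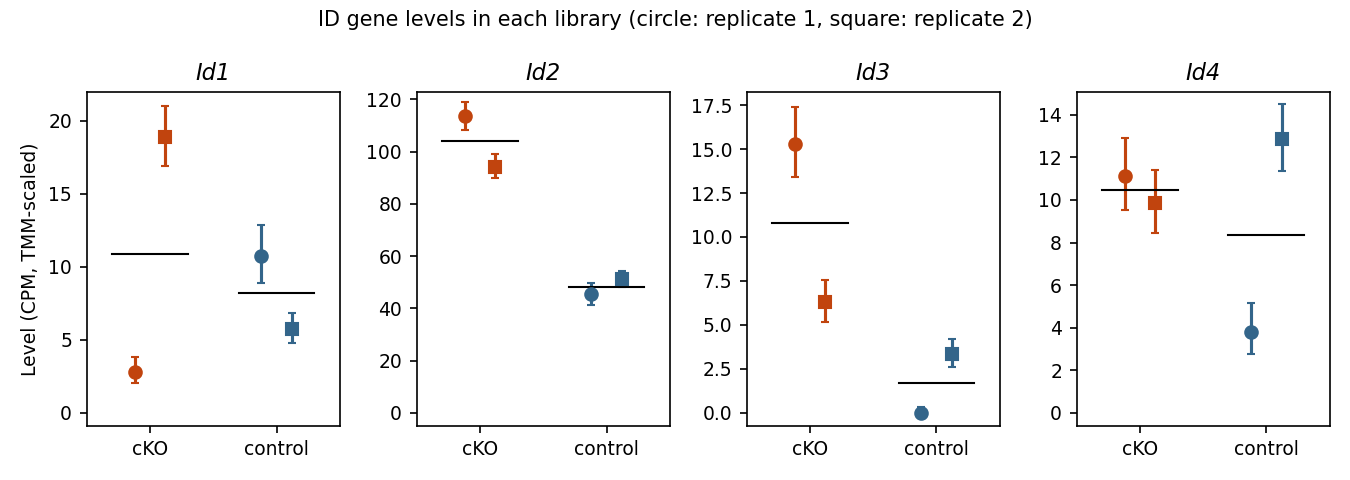
Level of each ID gene (CPM, TMM-scaled; each panel has its own axis) in cKO libraries (left, orange) and control libraries (right, blue). Points are libraries with 95% Poisson intervals for counting error and lines are group means; Id2 had 114 and 94.3 CPM in cKO, against 45.4 and 51.3 CPM in controls, and Id3 was at 0 in control replicate 1.

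Id2, the most abundant member, had 114 and 94.3 CPM in cKO replicates 1 and 2, against 45.4 and 51.3 CPM in control replicates 1 and 2. Both cKO libraries stood above both controls, and the libraries of a group differed by a factor of 1.20 in cKO and 1.13 in controls. The means were 104 ± 13.6 CPM in cKO and 48.3 ± 4.17 CPM in controls (SD, n = 2 each). Its log2 fold change was 1.10 (SE 0.23, 95% interval 0.57 to 1.63), or 2.15-fold, with an unadjusted edgeR p of 0.00164 and an adjusted p of 0.360. In order of p Id2 was number 78 of 17349 genes, and 1858 genes (10.7%) had a higher log2 fold change. Whether Id2 was called depended on the test: the adjusted p was 2.18e-06 with DESeq2, 0.0150 with limma-voom and 0.00398 without the filter on low counts, and 0.146 with edgeR's newer quasi-likelihood method. Those first 3 settings also called more genes in all, 963 (5.55%), 256 (1.48%) and 253 (1.04%). With 1 library left out the log2 fold change stayed between 0.96 and 1.22. Without control replicate 2 it was 1.20, beside a median of 0.25 over all genes tested.

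Id3, which in many tissues accompanies Id1, had 15.3 and 6.29 CPM in cKO, against 0 and 3.35 CPM in controls. These were 238 and 112 counts in cKO, against 0 and 70 counts in controls. Both cKO libraries stood above both controls, and cKO replicate 1 was the highest. A count of 0 in control replicate 1 allows up to 0.273 CPM (3 counts), below the lower 95% Poisson bound of 2.61 CPM in control replicate 2. Of 1740 genes with an average level within 0.5 log2 units of Id3, 247 (14.2%) were at 0 in control replicate 1 and none in control replicate 2, with 53 and 36 at 0 in the cKO libraries. The log2 fold change was 2.66 (SE 1.75, 95% interval -1.45 to 6.77, edgeR adjusted p = 0.894), and 397 genes (2.29%) had a higher one. It was 1.68 (SE 0.95) without control replicate 1 and 1.90 (SE 2.56) without cKO replicate 1. Without control replicate 2 the remaining control library had 0 counts, so the fitted fold change is no estimate of size.

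Id1, the member most often used as a readout of BMP signalling, had 2.83 and 18.9 CPM in cKO, against 10.7 and 5.73 CPM in controls. The highest and the lowest library were both cKO, and the groups overlapped. The 95% Poisson intervals of the cKO libraries, 2.06 to 3.80 CPM and 16.9 to 21.0 CPM, did not overlap, so the gap exceeded counting error. On the log2(CPM + 0.5) scale it was 5.82-fold, and a gap at least as wide between the cKO libraries was found for 2.62% of 1988 genes of like level. The log2 fold change was 0.40 (SE 0.96, 95% interval -1.86 to 2.67, edgeR adjusted p = 0.999). It was 1.20 without cKO replicate 1 and -1.55 without cKO replicate 2, so no direction can be given for Id1.

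Id4, which is known from the nervous system and germ line stem cells, had 11.1 and 9.84 CPM in cKO, against 3.82 and 12.9 CPM in controls. The cKO libraries lay close together between the 2 controls. Its log2 fold change was 0.32 (SE 0.79, 95% interval -1.53 to 2.18, adjusted p = 0.999 by edgeR), and -0.30 without control replicate 1. Control replicate 1 thus held the lowest value for Id2, Id3 and Id4 and not for Id1.

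**Figure D2:**
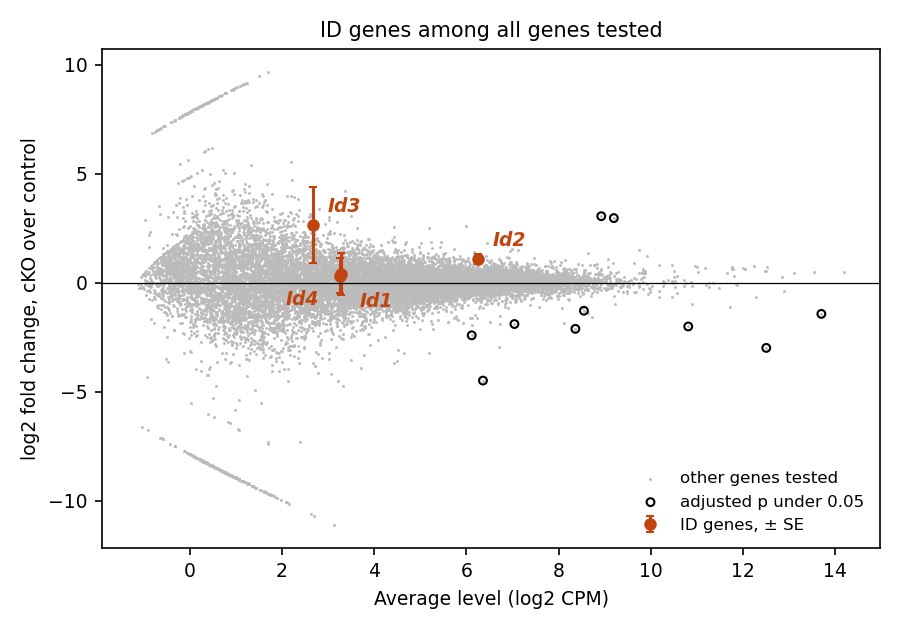
Log2 fold change (cKO over control) against average level (log2 CPM) for the 17349 genes tested (grey), the 10 genes with an adjusted p under 0.05 (open circles) and the ID genes (orange, ± SE). Id2 lies above 0 with an SE of 0.23 but was not called, Id3 has an SE of 1.75, and Id1 and Id4 lie near 0.

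Levels were compared between genes in CPM per kilobase, with the length of all annotated exons of a gene as the divisor. On that scale Id2 led in every library, with 42.6 ± 5.58 in cKO and 19.8 ± 1.71 in controls (SD, n = 2 each). Below it in cKO came Id1 (9.36 ± 9.79), Id3 (6.03 ± 3.56) and Id4 (2.72 ± 0.24), and these 3 did not differ from their neighbours in that order beyond their spread. In controls Id1 (7.10 ± 3.05) was next, then Id4 (2.17 ± 1.66) and Id3 (0.93 ± 1.32), the last 2 within their spread. Id2 was higher per length than all but 4.50% and 6.04% of the genes tested in cKO libraries, and than all but 15.2% and 12.9% in controls. The 4 genes summed to 60.5 and 61.0 CPM per kilobase in cKO, against 28.9 and 31.2 in controls. Id2 made up 77.0% and 63.4% of the sum in cKO and 64.5% and 67.4% in controls. Without Id2 the sums were 13.9 and 22.3 in cKO, against 10.2 and 10.2 in controls. Which gene filled the remainder differed by library: Id3 held 14.1% in cKO replicate 1, whereas Id1 held 26.7% in cKO replicate 2 and 32.1% in control replicate 1.

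**Figure D3:**
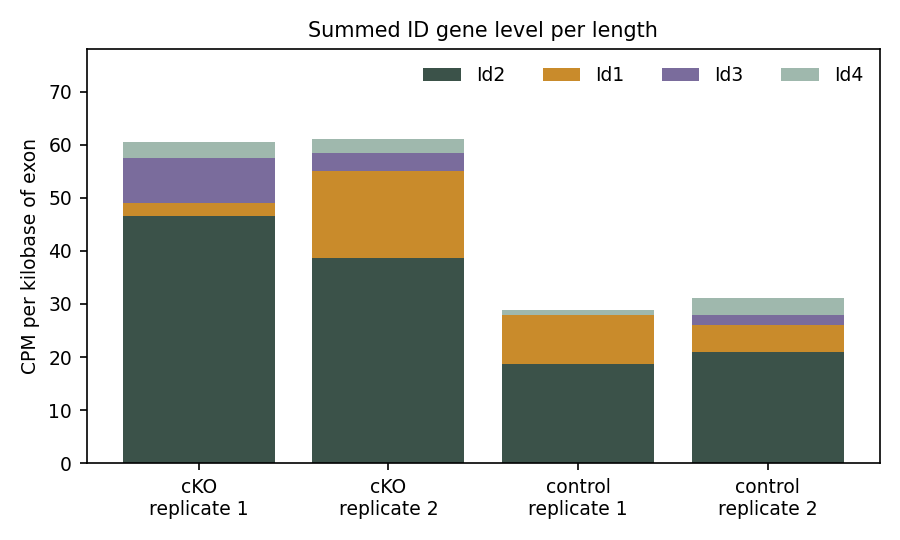
Summed level of the ID genes in each library (CPM per kilobase of exon, stacked by gene, cKO left of control). The cKO bars reach 60.5 and 61.0 and the control bars 28.9 and 31.2, with Id2 the largest share of each.

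The genes whose log2 CPM followed each member most closely over the 4 libraries, by root mean square difference of centred values among 11479 protein-coding genes, were different for each. For Id2 they were Zpr1 (0.039), Rims1 (0.042), Sun2 (0.046), Sclt1 (0.055) and Slc9a2 (0.055), all with log2 fold changes of 1.06 to 1.19 and none called. Id3 was followed by Ckm, Eda, Cdk2, Kcna1 and Col1a2 (0.045 to 0.204), which were also at 0 in control replicate 1. Tm6sf1, Lrrc46, Clic3, Slc16a5 and Mrps9 (0.187 to 0.253) were nearest to Id1, with lows in cKO replicate 1. Gk5, Snx6, Tmem117, Ablim3 and Pald1 (0.031 to 0.071) were nearest to Id4, with lows in control replicate 1. The like fold changes, zeros and lows follow from how these genes were picked. With 4 libraries such likeness is only a description of these libraries.

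Of the 3 members with a promoter in the RefSeq table (GRCm38.p6), Id2 and Id4 carried GGCGCC, the core that SMAD1 and SMAD5 bind in BMP-responsive genes. It was searched on both strands in the 250 bases before the start, where 9.59% of 32851 promoters held it. Id2 and Id4 each had 1 match and Id3 had none. The stretches are shown because Id2 and Id4 share the motif, which is in capitals. That of Id2 is at chr12:25096254-25096342 (-), in an intron of its longest transcript and 162 to 250 bases before the RefSeq start. That of Id4 is at chr13:48260866-48261115 (+), 1 to 250 bases before its start.
Id2: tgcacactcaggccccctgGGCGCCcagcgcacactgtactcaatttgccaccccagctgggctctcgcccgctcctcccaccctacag
Id4: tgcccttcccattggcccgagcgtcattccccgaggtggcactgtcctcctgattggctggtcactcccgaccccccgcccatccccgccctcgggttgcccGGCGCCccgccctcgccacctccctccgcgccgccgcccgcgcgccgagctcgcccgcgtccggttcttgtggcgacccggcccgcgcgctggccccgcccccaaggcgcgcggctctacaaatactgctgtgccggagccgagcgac
The GATA motif, searched on both strands as GATA preceded by A or T and followed by A or G, had no match in these 250 bases of Id2, Id3 or Id4, while 26.5% of promoters held one. The short SMAD motif GTCT, found in 82.9% of promoters, had 1 match in Id2, 2 in Id3 and none in Id4. A match is not a binding site, and no binding was measured.

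E proteins, the partners that ID proteins hold off DNA, were not called (0 of 3 by edgeR, DESeq2 or limma-voom, 0 at an unadjusted p under 0.05), with a median log2 fold change of 0.28. Of all genes, edgeR called 0.0576%, DESeq2 5.55% and limma-voom 1.48%, and 7.04% had an unadjusted edgeR p under 0.05. Tcf4 had 285 and 282 CPM in cKO, against 166 and 266 CPM in controls (log2 fold change 0.39, SE 0.23), and Tcf3 and Tcf12 had 0.28 (SE 0.35) and 0.05 (SE 0.24). Control replicate 1 held the lowest value of all 3, and without it the list's median was -0.09. Each length covered every annotated exon of a gene. Summed per length, ID transcripts stood at 2.13 and 1.83 times E protein transcripts in cKO, against 1.51 and 0.98 times in controls. In CPM without lengths, E protein transcripts were the more abundant. ID genes summed to 143 and 129 CPM in cKO, against 59.9 and 73.2 CPM in controls. E proteins summed to 416 and 434 CPM in cKO, against 265 and 422 CPM in controls. Proteins were not measured.

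Of 27 other bHLH genes 14 were tested, 9 were higher and 0 were called by edgeR, with a median log2 fold change of 0.13. Of all 17349 genes tested, 9099 were higher and edgeR called 0.0576%. DESeq2 called 1 bHLH gene higher and 1 lower, and limma-voom 0, beside 5.55% and 1.48% of all genes. Bhlhe40, a clock-linked repressor, had 458 and 470 CPM in cKO, against 341 and 333 CPM in controls (log2 fold change 0.46, SE 0.13). Its relative Bhlhe41 had 0.51 (SE 0.21) and Neurod4, a factor of neuroendocrine differentiation, 1.76 (SE 0.69). Hes6, a relative of the Notch effectors, had 62.9 and 80.1 CPM in cKO, against 128 and 119 CPM in controls (-0.79, SE 0.21). These 4 had the smallest p of the list, from 0.0072 to 0.0415 unadjusted and 0.543 to 0.693 adjusted (edgeR).

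Other BMP target genes were not called by edgeR. Of 12 tested out of 18 listed, 3 had a log2 fold change above 0 and 9 below, beside 8250 below of the 17349 genes in all, and the median was -0.37. The size of this median rested on single libraries: leaving out cKO replicate 1 gave -0.66 and leaving out cKO replicate 2 gave -0.18, while dropping control replicate 1 gave -0.11 and dropping control replicate 2 gave -0.61, with 5 genes above 0 and 7 below in the last case. The 1 gene at an unadjusted edgeR p under 0.05, Klf10, was on the higher side, as was the 1 gene that DESeq2 called. From this list limma-voom called 0, and none of the 3 tests called a gene lower. Over all genes, 7.04% had such a p, while edgeR called 0.0576%, DESeq2 5.55% and limma-voom 1.48%. Klf10, an early gene of TGF-beta family signalling, had 96.7 and 122 CPM in cKO, against 62.1 and 65.1 CPM in controls (0.78, SE 0.22, edgeR adjusted p = 0.560). Gata3 had 0 and 0 counts in cKO, against 38 and 19 counts in controls. Dlx3, a homeobox gene, had -1.54 (SE 1.27) and Bambi, a decoy receptor, -1.31 (SE 1.09).

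Among the genes upstream of the ID genes, BMP antagonists held the single call by edgeR, and limma-voom called 1 antagonist and DESeq2 2, all on the lower side. Over all genes the shares called were 0.0576% by edgeR, 1.48% by limma-voom and 5.55% by DESeq2. Grem1 fell to 8.17 and 5.79 CPM in cKO, against 199 and 115 CPM in controls (log2 fold change -4.49, SE 0.37, edgeR adjusted p = 0.0263). The title may rest on these libraries, so its direction is not independent evidence. Bmper had 15.3 and 15.0 CPM in cKO, against 32.7 and 29.9 CPM in controls (-1.05, SE 0.37, adjusted p = 0.653 by edgeR). Twsg1 had 0.16 (SE 0.21) and Fstl1 1.81 (SE 2.33). Over the 10 tested of 16 listed antagonists 5 were higher and 5 lower, with a median of -0.09. The list's median was 0.21 without control replicate 2, where that over all genes tested was 0.25. Of 22 BMP ligands, receptors and SMADs 16 were tested and 12 were higher (median 0.11), beside 9099 higher of all 17349 genes tested. None was called by edgeR, DESeq2 or limma-voom, and 0 had an unadjusted edgeR p under 0.05, beside 7.04% of all genes. Smad4, the shared SMAD, had 127 and 134 CPM in cKO, against 67.7 and 107 CPM in controls (0.58, SE 0.25), and Smad1 had 94.8 and 97.1 CPM in cKO, against 49.5 and 84.2 CPM in controls (0.52, SE 0.28). The receptor gene Acvr2b had 1.42 (SE 0.91) and the ligand gene Bmp8a -3.25 (SE 2.16). The ligand genes Bmp4, Bmp5, Gdf2, Gdf5 and Gdf6 and the antagonist gene Nog, chosen after their values were seen, had 0 counts in all 4 libraries.

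Cell cycle inhibitors, some of which E proteins activate and ID proteins restrain in other cells, were split. Of 7 listed 6 were tested, 4 were higher and 2 lower, with a median log2 fold change of 0.33. The list's median was -0.10 without cKO replicate 2, where that over all genes tested was -0.08. edgeR called 0, with 2 at an unadjusted p under 0.05, and DESeq2 and limma-voom each called 1, on the lower side. Among all genes edgeR called 0.0576%, with 7.04% at an unadjusted p under 0.05, DESeq2 called 5.55% and limma-voom 1.48%. Cdkn1b, for p27, had 149 and 117 CPM in cKO, against 199 and 230 CPM in controls (-0.69, SE 0.19, edgeR adjusted p = 0.553). Cdkn1c, for p57, had 67.6 and 58.0 CPM in cKO, against 43.9 and 39.0 CPM in controls (0.60, SE 0.26). Cdkn2b had 0 and 0 counts in cKO, against 17 and 39 counts in controls, and Cdkn2d had 0.45 (SE 0.53).

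**Figure D4:**
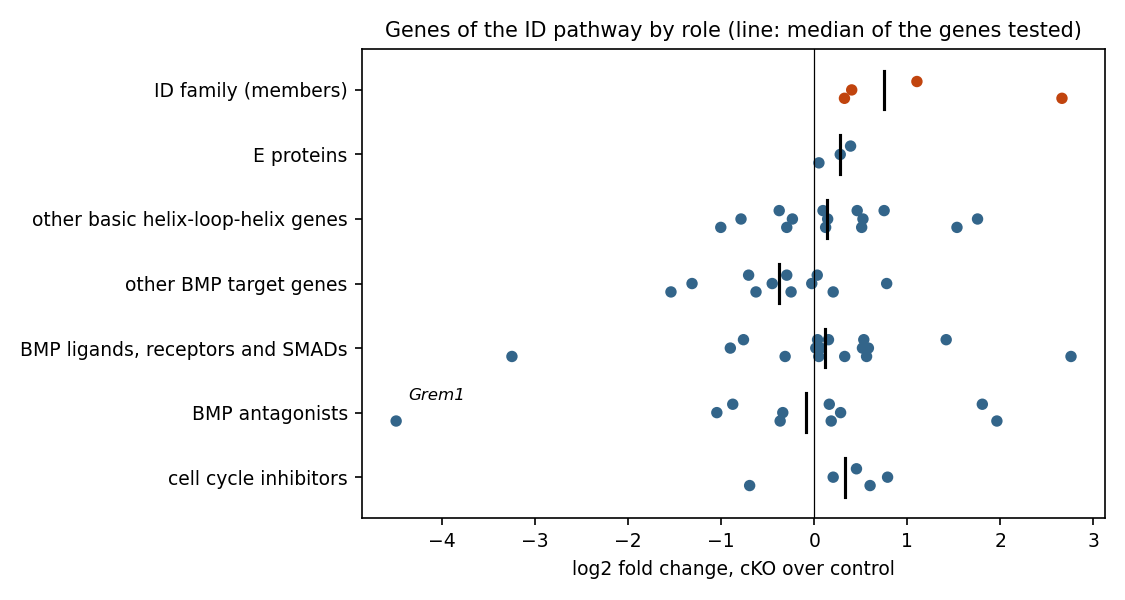
Log2 fold change (cKO over control) of the tested genes on each list by role, 1 point per gene, with the list's median over its tested genes as a line; Gata3 and Cdkn2b, at 0 in cKO, are not drawn as points. The ID genes (orange) have a median of 0.75, other BMP target genes -0.37, and Grem1 is the single gene called by edgeR.

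ID genes are also transcribed in cells other than gonadotropes, and their markers were measured in the same libraries. In bulk samples fewer cells of a type and less RNA per cell cannot be told apart. Over all genes edgeR called 0.0576%, DESeq2 5.55% and limma-voom 1.48%, and 7.04% had an unadjusted edgeR p under 0.05. Lactotrope markers (6 of 6 higher, 0 called by edgeR, 3 by DESeq2 and 1 by limma-voom, 4 at an unadjusted p under 0.05) summed to 1386 and 1391 CPM in cKO, against 367 and 647 CPM in controls, led by Prl with 1249 and 1271 CPM in cKO, against 312 and 583 CPM in controls. Gal had 32.3 and 40.1 CPM in cKO, against 17.6 and 19.1 CPM in controls. Pituitary stem cell markers (3 of 7 tested higher, 0 called by edgeR, 1 each by DESeq2 and limma-voom, 1 at an unadjusted p under 0.05) summed to 131 and 150 CPM in cKO, against 87.7 and 99.8 CPM in controls. Among them the values went both ways, with 3 tested markers higher and 4 lower. Sox9 had 58.0 and 73.0 CPM in cKO, against 24.4 and 27.4 CPM in controls. Sox2 had 23.7 and 22.1 CPM in cKO, against 12.7 and 16.7 CPM in controls. Lcn2 had 18.5 and 25.5 CPM in cKO, against 12.6 and 8.46 CPM in controls. On the lower side, Aldh1a2 had 8.30 and 16.6 CPM in cKO, against 22.4 and 21.9 CPM in controls. Fabp7 and Cdh26 were at 0 throughout. The part of these cells in the Id2 values was not tested.

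Endothelial cells express Id1 and Id3 strongly, and their markers were low here, with 0 called by edgeR or limma-voom and 1 lower by DESeq2, and 1 at an unadjusted p under 0.05. The 10 genes summed to 23.3 and 11.5 CPM in cKO, against 37.7 and 37.5 CPM in controls, with Emcn and Cldn5 at 0 in all libraries, Cdh5 at 12.2 and 5.40 CPM in cKO, against 1.73 and 18.2 CPM in controls, and Pecam1 at 3.73 and 3.82 CPM in cKO, against 15.8 and 4.68 CPM in controls. Their part in the Id1 and Id3 values was not tested. Fibroblast and pericyte markers summed to 18.6 and 12.7 CPM in cKO, against 0.09 and 20.8 CPM in controls, led by Col1a2 and Rgs5. Both genes, like Id3, were at 0 in control replicate 1, but only 3 of the 9 listed markers were tested. The markers not tested had 0 counts in both cKO libraries and control replicate 1, against 17 to 85 counts in control replicate 2. The part of such cells in the Id3 values was not tested. Macrophage and leukocyte markers summed to 3.34 and 18.2 CPM in cKO, against 24.8 and 17.9 CPM in controls, led by Cd68 and Fcer1g, with C1qa and C1qb at 0 throughout. All 8 gonadotrope markers had a log2 fold change below 0. edgeR called 1 of them, Fshb, and 4 had an unadjusted edgeR p under 0.05. DESeq2, limma-voom and edgeR's newer method, which called 0.271% of all genes, each called 4, all lower. The 8 markers summed to 7098 and 8430 CPM in cKO, against 16064 and 14464 CPM in controls, with Cga and Lhb the highest. Corticotrope and melanotrope markers, led by Pomc and Pcsk2, summed to 6343 and 7512 CPM in cKO, against 7534 and 10214 CPM in controls. Somatotrope markers, led by Gh and Kcnmb2, summed to 2170 and 406 CPM in cKO, against 1155 and 2405 CPM in controls, and thyrotrope markers to 136 and 92.3 CPM in cKO, against 77.2 and 68.7 CPM in controls. Most of the thyrotrope sum was Dio2, which other cells also transcribe, with 116 and 82.7 CPM in cKO, against 54.9 and 52.6 CPM in controls. Tshb, the thyrotropin subunit gene, had the opposite sign, with 7.33 and 7.08 CPM in cKO, against 22.3 and 13.7 CPM in controls (log2 fold change -1.32, SE 0.57, edgeR adjusted p = 0.705). edgeR called 0 markers of these last 3 types; DESeq2 called 1 somatotrope marker lower and 1 thyrotrope marker higher, and limma-voom 1 somatotrope and 1 corticotrope or melanotrope marker lower.

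**Figure D5:**
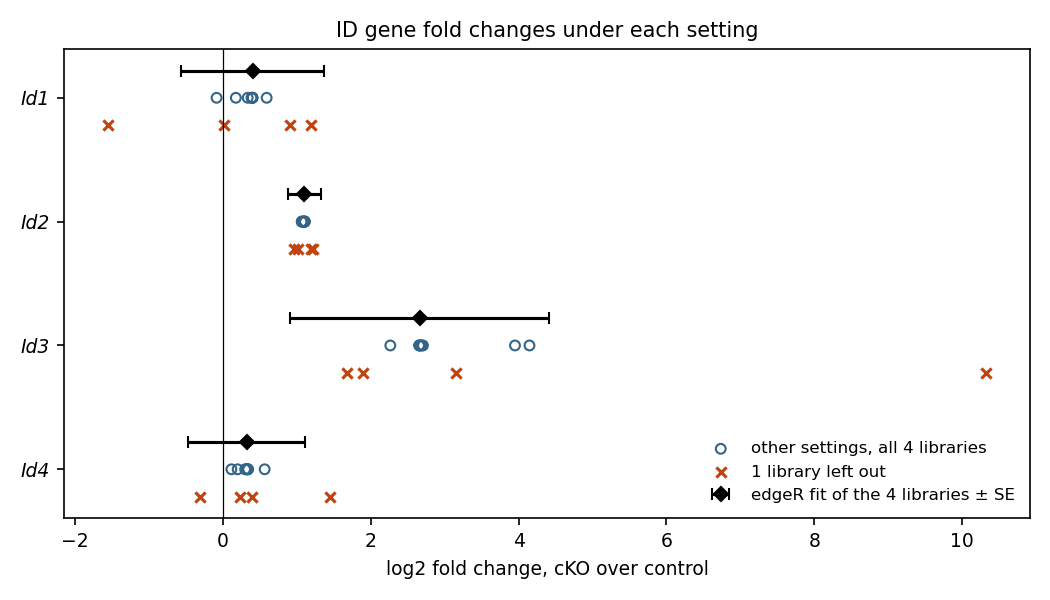
Log2 fold change (cKO over control) of each ID gene in the edgeR fit of all 4 libraries (diamond, ± SE), under other settings with all 4 libraries (open circles) and with 1 library left out (crosses). Id2 stays between 0.96 and 1.22, while Id1 spans -1.55 to 1.20 and Id3 reaches 10.3 where the remaining control library has 0 counts.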

How the data were processed

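The deposited table holds estimated counts per gene, which the authors made on mm10 with featureCounts 1.5.0-p1 after STAR 2.5.1b, per the submitters' processing notes. Annotation release, strand setting and the handling of multi-mapped reads were not stated in the sources used here. Of all values 4.50% were not whole, and they were rounded. Identifiers without their version were matched to GENCODE M21 (54409 of 54532). Genes were filtered with filterByExpr (minimum count 10, minimum total 15) and scaled with TMM factors. Groups were compared with glmQLFTest of edgeR 4.0.16 (quasi-likelihood, two-sided, legacy form, R 4.3.3), with group as the single term. A call needed a Benjamini-Hochberg adjusted p under 0.05 over all genes tested. The standard error (SE) is the log2 fold change divided by the square root of F. log2 CPM used a prior of 0.5 CPM. Poisson intervals (95%) and floors of 3 counts cover counting error only. The test was tried on simulated data. It recovered 15.2% of 99 genes changed 2-fold and 60% of 100 genes changed 4-fold, with 2.60% of its calls false.

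The members, lists and alternatives were chosen with earlier results of these data known. Named are the ID genes, the E proteins and up to 4 genes with the smallest p from each other list. Also named are the 2 most abundant markers of each cell type, any at 0 throughout, and the 5 closest patterns per member (average log2 CPM of at least 2). Lcn2 and Aldh1a2 were named outside these rules. Alternatives were DESeq2 size factors, library size only, no filter, 1 CPM in 2 libraries, DESeq2 1.42.0, limma-voom (limma 3.58.1), edgeR's newer method, the replicate block, counts without rounding and each library left out. List medians without each library, and list counts under every alternative, were added after seeing the data.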

Additional observations from a re-analysis of the deposited data

How the results depend on the processing

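The count of 10 genes called became 963 with DESeq2, 256 with limma-voom, 253 with no filter, 47 with edgeR's newer method, 3 with 1 CPM in 2 libraries, and 66 to 681 with 1 library left out, where a lone library is assumed to vary like the other group. Id2 was above 0 in all 13 alternatives. With all 4 libraries it passed the threshold with no filter (1.10), DESeq2 (1.11) and limma-voom (1.07). With 1 library left out it ranged from 0.96 to 1.22. Without control replicate 2 it was 1.20, beside a median of 0.25 over all genes tested. Id3 was above 0 in all 13. Its fitted 10.3 without control replicate 2 stands against a library at 0 and is no estimate of size. The range with 1 library left out was 1.68 to 10.3. Id1 was -0.083 with the replicate block and -1.55 to 1.20 with 1 library left out. With 1 library left out Id4 was -0.30 to 1.46. For each of these the cause was not tested. The replicate block called 7 genes, 6 of them among the 10, and 0 ID genes (Id2 1.10, adjusted p 0.432). Deviations of like-numbered libraries were not correlated across genes (-0.011), which does not settle whether such libraries shared a litter or day. Scaling with DESeq2 size factors or library size only changed no sign or call of an ID gene. With 1 library left out, the median of E proteins ran from -0.09 to 0.77 and that of BMP antagonists from -0.76 to 0.21. That of cell cycle inhibitors ran from -0.10 to 0.37, so the medians of these lists all crossed 0. That of other BMP target genes ran from -0.66 to -0.11. The median over all genes tested also moved, from -0.08 without cKO replicate 2 to 0.25 without control replicate 2. Id1, Id3 and Id4 had 0 to 336 counts per library. The 95% Poisson intervals of the 2 cKO libraries for Id1 and Id3, and of the 2 controls for Id4 (2.75 to 5.16 and 11.4 to 14.5 CPM), did not overlap, so these gaps exceeded counting error.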
